A study of Mus musculus with 12 samples.

Results

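The comparison set CD71-positive thymocytes of Ncaph2 mutant mice against the same cells of wild-type mice, on 3 arrays each. They are 6 of the 12 arrays of the series, chosen by genotype and sort gate. The values cover all 18138 gene symbols of the array, of which 8247 were detected often enough to be tested. The study sorted thymic T cells that carried both CD4 and CD8, divided them by CD71, and measured RNA in wild-type and mutant cells of each subset. The mutant group, Caph2nes/nes in the labels, carried the I15N missense change in Caph2, the older name of Ncaph2, and the wild-type group was Caph2+/+. Mice of both groups were C57BL6/J, aged 8 to 12 weeks, with a 50/50 mix of the sexes, and the cells of both groups came through a low forward scatter gate. The labels name no restriction of the change to T cells. Nor do they state if each of the 3 samples was taken from its own animal, and the p-values below therefore weigh differences against a spread that could be technical.

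NCAPH2 closes the ring of condensin II, which resides in the nucleus and compacts chromosomes so that division can draw them apart. CD71 is the transferrin receptor, the iron uptake protein of growing cells, and thymocytes with CD4, CD8 and CD71 are those that still divide after the pre-T cell receptor signal. Interferon-stimulated genes are switched on by type I or type II interferon and by sensors of stray nucleic acid, and many encode antiviral proteins or parts of antigen presentation.

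Mean signal on the 6 arrays ran from 129 to 203, with 6153 to 7415 genes detected (detection p under 0.05). Mutant array 2 was the dimmest. Across tested genes, arrays of the same CD71-positive group correlated at 0.975 to 0.993 and arrays of different genotype at 0.968 to 0.991. All levels below are normalized log2 signal, on which a gene without signal lies near 5.4, and the arithmetic compresses the changes of genes close to that floor. Genes are not compared with each other by level, since each probe has its own brightness. In RNA from a bulk sort, fewer cells of a type and less RNA per cell cannot be told apart.

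The sorted cells carried the RNA of T cells of this stage, with 1 gap. Cd8b1, the beta chain of CD8, lay at 11.17, 11.66 and 11.78 on the wild-type arrays and at 11.11, 11.23 and 10.97 on the mutant arrays. Cd3d, Cd3e and Cd3g, which encode chains of the T cell receptor complex, were detected on every array. Cd8a was detected on no array of the series, and Cd4 was dim, at 5.59 to 5.73 in wild type and 5.50 to 5.59 in mutants. Tfrc, which encodes CD71, was close between the genotypes: 8.16, 7.77 and 7.92 in wild type against 8.04, 7.69 and 8.28 in mutants. Its difference was 0.05 ± 0.28 (mutant minus wild type on the log2 scale, SE of the fit, 3 arrays a side; adjusted p = 0.998).

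The RNA of the mutated gene did not differ past the threshold. Ncaph2 read 7.68, 8.00 and 7.58 on the wild-type arrays and 7.66, 7.92 and 7.57 on the mutant arrays, and the groups overlapped fully. The difference was -0.04 ± 0.16 (adjusted p = 0.998), a value that cannot check the genotype labels because a missense change need not alter the amount of RNA. None of the other 5 condensin subunits that could be tested passed the threshold either. Ncaph, the kleisin of condensin I, was at 0.14 ± 0.18 and Ncapd3, a condensin II subunit, at -0.07 ± 0.16. The median of the 6 was -0.01.

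Across the array, 35 genes passed an adjusted p of 0.05, which is 0.424% of those tested. Of these, 24 rose (0.291% of tested genes) and 11 fell (0.133%). The rises included interferon-stimulated genes, the transcription factor gene E2f1 and genes of the nucleolus. The falls included Cdca8 of the chromosomal passenger complex and Endou, a gene of the double-positive thymocyte list. All 35 had mutant arrays that lay wholly above or wholly below the wild-type arrays, as did 14.6% of all tested genes (7.25% higher and 7.35% lower). Changes were modest: the rises spanned 1.13-fold to 3.04-fold, and 5 of the 35 exceeded 1 on the log2 scale. The call rests on borrowing the spread from the CD71-negative arrays, since a fit on the CD71-positive arrays alone called 2 genes, and cyclic loess and median centring in place of quantile normalization left 6 and 0. Leaving out single arrays gave 11 to 61 calls, and without mutant arrays 1 and 2 there were 7. Of the 35 genes, 21 kept their call in fewer than 13 of the 26 alternatives, among them Lgals3bp (12), Ifi27 (11), Isg15, Ifitm3 and Sun2 (9 each), Psmb9 (8), Nup43 and Prnp (6 each), Nol10 (5), Adk and Nudt19 (4 each) and Eif2s2 (3). An unadjusted p under 0.05 was reached by 705 genes, or 8.55%, with 421 higher (5.1%) and 284 lower (3.44%).

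**Figure D1:**
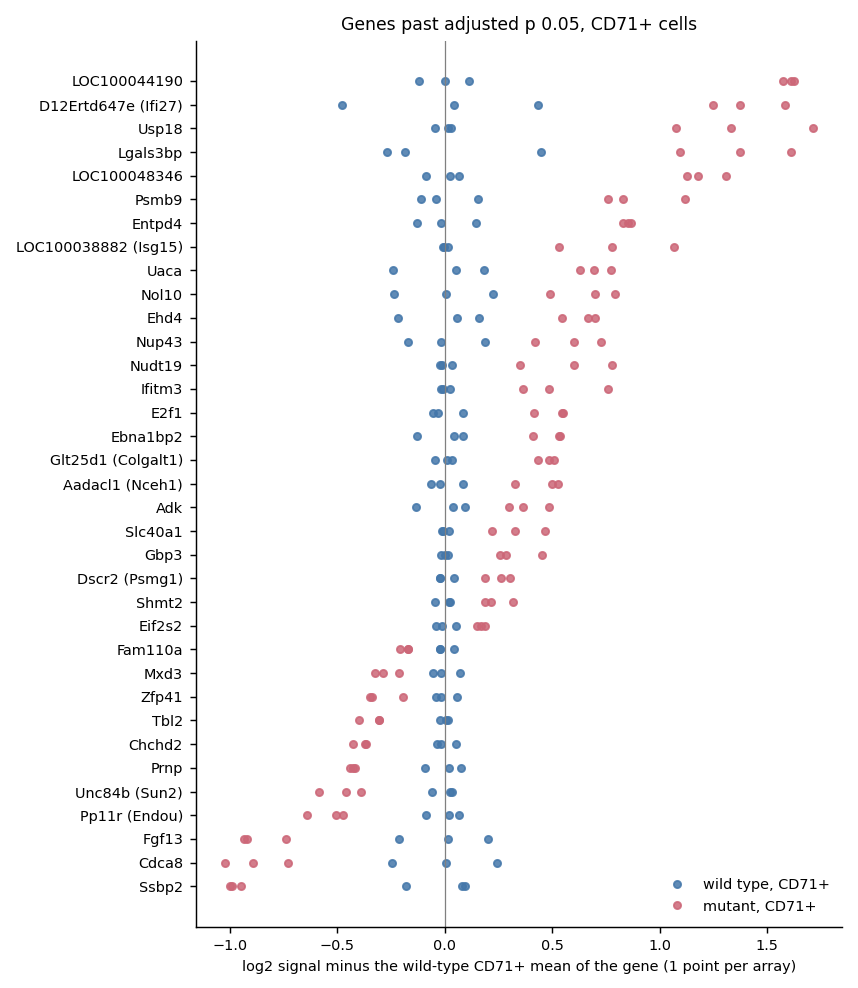
The horizontal axis gives each array's log2 signal minus the wild-type CD71-positive mean of that gene, with 1 point per array, blue for wild type and red for mutant. The 24 genes that rose and the 11 that fell are ordered by their difference, and for each of the 35 the colours do not overlap.

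Interferon-stimulated effector genes held more of the calls than any other list. Of 36 tested members, 6 passed the threshold, all higher, and 25 had an unadjusted p under 0.05, all higher (7 to 27 over the alternatives). Of all tested genes 5.1% were higher at that level. The difference was above 0 for 35 of the 36, against 46.9% of all tested genes, and the median was 0.24 against 0.00 for all tested genes (-0.0033). Over all alternatives of processing and with each array left out in turn the median stayed between 0.12 and 0.35, although with mutant arrays 1 and 2 both left out it rested on a single mutant array.

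Usp18, which strips the ubiquitin-like protein ISG15 from its targets and dampens the type I interferon receptor, was barely above the floor in wild type at 5.65, 5.72 and 5.73. On the mutant arrays it read 6.78, 7.41 and 7.03, so that every mutant array lay more than a log2 unit above the wild-type mean. The difference was 1.37 ± 0.13 (2.59-fold, adjusted p = 0.0067). Isg15 itself, which the array lists as LOC100038882 and which was matched by gene ID, moved from 5.55, 5.57 and 5.55 to 6.34, 6.63 and 6.09 (0.79 ± 0.13, adjusted p = 0.046). Both genes were lowest among the mutants on array 1 or array 3, and neither group came near the other.

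D12Ertd647e, now named Ifi27, encodes an interferon-inducible membrane protein. It read 8.52, 7.6 and 8.13 in wild type and 9.46, 9.66 and 9.33 in mutants (1.40 ± 0.21, adjusted p = 0.034). The wild-type arrays were spread widely, yet the highest of them stayed below the lowest mutant array. The array also carries an entry under the symbol Ifi27, which may be a near-identical family member, and its difference of 0.67 did not pass the threshold (adjusted p = 0.47), so signal within this family is uncertain.

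Lgals3bp, which encodes a secreted glycoprotein that binds galectin-3, went from 6.92, 7.55 and 6.84 to 8.47, 8.71 and 8.20 (1.36 ± 0.20, adjusted p = 0.034). Ifitm3, a membrane protein that blocks the entry of viruses, went from 5.58, 5.61 and 5.57 to 6.07, 6.34 and 5.95 (0.54 ± 0.09, adjusted p = 0.0496). Gbp3, an interferon-induced GTPase gene, rose from 5.54, 5.58 and 5.56 to 5.82, 5.84 and 6.01 (0.33 ± 0.04, adjusted p = 0.022). In each of these 3 genes all mutant arrays were above all wild-type arrays, and array 2 was the highest for Lgals3bp and Ifitm3.

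Members that did not pass the threshold were Eif2ak2, the kinase PKR that halts translation on double-stranded RNA, at 0.75 ± 0.22, Parp14 at 0.58 ± 0.13, Rsad2, the antiviral enzyme viperin, at 0.58 ± 0.11, and the GTPase gene Igtp at 0.56 ± 0.14. Their adjusted p-values ran from 0.068 for Rsad2 to 0.28 for Eif2ak2. Bst2, which tethers budding virus to the cell, was at 0.40 ± 0.09, and the RNA sensor regulator Dhx58 at 0.13 ± 0.03. The 2'-5' oligoadenylate synthetase genes were close to the floor, with Oas1g at 0.08, Oas2 at 0.06, Oasl1 at 0.06 and Oasl2 at 0.10.

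The signalling genes upstream of these effectors gave a flat list. Of 20 tested receptors, kinases and transcription factors, 0 passed the threshold, and the median was 0.01. An unadjusted p under 0.05 was reached by 2, both higher (10% against 5.1% of all tested genes). Irf7, the amplifier of type I interferon genes, was near the floor at 5.43 and 5.53 (group means, difference 0.10 ± 0.02, adjusted p = 0.19). The arrays of the genotypes did not overlap for this gene.

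Genes of antigen presentation by class I molecules also stood higher. Psmb9, an inducible subunit of the immunoproteasome that cuts proteins into peptides, read 7.0, 6.73 and 6.80 in wild type and 7.96, 7.67 and 7.6 in mutants (0.90 ± 0.15, adjusted p = 0.043), with no overlap. It was the 1 called gene of 17 tested. Another 8 had an unadjusted p under 0.05, all higher (background 5.1%). Of the 17, 16 were above 0, against 46.9% of all tested genes, and the median was 0.22 (range over alternatives 0.09 to 0.28). The count at that level, Psmb9 included, ran from 0 to 11 over the alternatives. B2m, the invariant light chain of class I, lay at 9.94, 9.94 and 9.93 in wild type and 10.54, 10.67 and 10.47 in mutants (0.63 ± 0.13, adjusted p = 0.11). Nlrc5, the transactivator of class I genes, listed as AI451557, lay at 5.46 to 5.49 and at 5.69 to 5.76 (0.25 ± 0.05, adjusted p = 0.093). Psmb10, another inducible subunit, was at 0.75 ± 0.22 and the class I gene H2-T10 at 1.05 ± 0.32 (adjusted p = 0.28 and 0.31), and class I genes have close copies that the probes may not separate.

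The upstream sequences of interferon-stimulated genes are shown because the interferon-stimulated response element, a DNA word of interferon-regulated promoters, is a mark of the family. RefSeq (GRCm38.p6) windows of 250 bases before the annotated start were available for 25 of the 35 current symbols of the tested effectors. The searched word was GAAA, any 2 bases and GAAA again, on both strands, with overlapping matches counted, and it occurs in 2.97% of 32817 such windows of all genes. The 25 effectors had 30 windows, of which 11 held a match. At least 1 match was found for 11 of the 25 effectors, namely Bst2, Gbp2, Gbp3, Ifit3, Igtp, Irgm1, Irgm2, Isg15, Oas1g, Rsad2 and Trim30a. Of the genes that rose, 17 had a window and 3 held a match, in 3 of 20 windows: Gbp3, Isg15 and the nucleolar gene Nol10. No match was found in the windows of the 7 genes that fell and had one, or of the 5 such genes of the passenger complex list. Gbp3 has 2 windows, and the one that holds matches is shown, while the other holds none. The windows of Isg15, Gbp3, Rsad2 and Lgals3bp, from the gene's own strand and written 5′ to 3′, follow with the matches in capitals.
Isg15, chr4:156200819-156201068, minus strand: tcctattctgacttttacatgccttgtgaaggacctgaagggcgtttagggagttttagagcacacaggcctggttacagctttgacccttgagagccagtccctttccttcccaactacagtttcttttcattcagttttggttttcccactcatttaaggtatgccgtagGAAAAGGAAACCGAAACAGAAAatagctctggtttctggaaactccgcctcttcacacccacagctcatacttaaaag
Gbp3, chr3:142559794-142560043, plus strand: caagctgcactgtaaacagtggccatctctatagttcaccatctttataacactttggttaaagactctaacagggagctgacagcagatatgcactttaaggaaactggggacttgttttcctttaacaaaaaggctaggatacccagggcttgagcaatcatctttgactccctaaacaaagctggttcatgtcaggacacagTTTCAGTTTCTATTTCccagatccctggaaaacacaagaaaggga
Rsad2, chr12:26456453-26456702, minus strand: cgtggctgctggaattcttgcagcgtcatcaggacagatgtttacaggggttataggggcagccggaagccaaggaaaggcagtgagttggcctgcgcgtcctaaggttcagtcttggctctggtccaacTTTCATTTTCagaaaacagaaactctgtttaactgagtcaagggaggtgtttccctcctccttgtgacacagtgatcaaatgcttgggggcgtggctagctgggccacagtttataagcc
Lgals3bp, chr11:118401960-118402209, minus strand: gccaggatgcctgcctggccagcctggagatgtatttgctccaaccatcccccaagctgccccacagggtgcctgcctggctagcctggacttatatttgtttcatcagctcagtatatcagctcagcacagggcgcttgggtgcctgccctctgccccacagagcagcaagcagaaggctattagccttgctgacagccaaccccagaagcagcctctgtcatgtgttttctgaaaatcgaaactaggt
Isg15 has 3 overlapping matches that start 78 bases before the start site, Gbp3 has 2 and Rsad2 has 1, while the Lgals3bp window holds no match. A match describes the letters of the window and is not evidence of binding in these cells.

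Genes of DNA synthesis and of late division leaned in opposite directions. The 1 called rise was that of E2f1, the activator of S-phase genes, which read 7.97, 8.09 and 7.94 in wild type and 8.42, 8.55 and 8.54 in mutants (0.50 ± 0.05, 1.42-fold, adjusted p = 0.0067). Mutant arrays were tightly grouped and clear of the wild-type arrays. The other E2F activator with a low p-value pointed the other way: E2f2 lay at 10.13, 10.38 and 10.30 against 9.94, 9.85 and 9.96 (-0.35 ± 0.10, adjusted p = 0.26). Among the 24 tested regulators of the G1 to S step, Ccnd1 (cyclin D1) was at 0.57 and Cdkn2c, an inhibitor of its kinase partners, at -0.56 (both with an unadjusted p under 0.05), and the median of the list was 0.01.

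No replication gene passed the threshold, but nearly all tested members were above 0. Of 42 genes of DNA replication and licensing, 39 were higher in mutants, 10 had an unadjusted p under 0.05, all of them higher (background 5.1%), and the median was 0.21, with a range of 0.05 to 0.25 over the alternatives. The higher count at that level was less stable and ran from 0 to 22. Dut, which keeps uracil out of DNA, read 6.03, 5.98 and 5.77 in wild type and 6.70, 6.52 and 6.27 in mutants (0.57 ± 0.10, adjusted p = 0.065). Chaf1b, a subunit of the histone chaperone of replicating DNA, read 7.64, 7.71 and 7.21 against 8.10, 8.25 and 8.03 (0.61 ± 0.13, adjusted p = 0.11). Mcm10, which helps start the replication fork, was at 0.34 ± 0.08 and the thymidine kinase gene Tk1 at 0.42 ± 0.13 (adjusted p = 0.17 and 0.32). The mutant arrays lay above all wild-type arrays for these 4 genes.

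Genes that act at the end of division stood lower. Cdca8, which encodes borealin, the subunit that docks the chromosomal passenger complex on centromeres, fell from 8.47, 8.70 and 8.21 to 7.57, 7.44 and 7.73. The highest mutant array was below the lowest wild-type array, and the difference was -0.88 ± 0.12 (1.84-fold lower, adjusted p = 0.022). All 6 tested genes of the passenger complex and its partners were lower in mutants, against 46.9% of all tested genes above 0, and their median was -0.47 (range -0.56 to -0.33). Cdca8 was the called gene among them, and 4 of the 6 had an unadjusted p under 0.05, all lower (background 3.44%). That count ran from 1 to 5 over the alternatives.

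The other members did not pass the threshold. Kif4, a chromokinesin that carries PRC1 to the central spindle, read 6.45, 6.54 and 6.39 in wild type and 6.15, 5.87 and 6.14 in mutants (-0.40 ± 0.07) and was the gene just outside the threshold, with an adjusted p of 0.0512 where the last gene inside had 0.0496. Prc1, which bundles the microtubules of that spindle, read 11.04, 11.03 and 10.77 against 10.27, 10.33 and 10.63 (-0.54 ± 0.17, adjusted p = 0.34), again without overlap. Haspin, listed as Gsg2, is the kinase that marks histone H3 for the complex. It lay at 6.97, 7.29 and 6.53 against 6.16, 6.23 and 6.65, so that mutant array 3 reached into the wild-type range (-0.59 ± 0.18, adjusted p = 0.31). Incenp, the scaffold, and Birc5, survivin, were at -0.33 ± 0.16 and -0.32 ± 0.22.

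Kinetochore, spindle and mitotic entry genes leaned the same way by less. Of 40 tested, 34 were below 0, 8 had an unadjusted p under 0.05 and were lower (background 3.44%), 1 was higher (background 5.1%), and 0 passed the threshold. The lower count ran from 2 to 13 over the alternatives. The median was -0.12 and stayed below 0 under every alternative tried. Cdc20, the activator of the anaphase ubiquitin ligase, read 8.62, 8.85 and 8.53 in wild type and 8.41, 8.47 and 8.00 in mutants (-0.37 ± 0.12, adjusted p = 0.34). Spc25, of the kinetochore complex that grips microtubules, read 8.33, 7.49 and 7.97 against 7.06, 7.21 and 7.64 and overlapped (-0.63 ± 0.20, adjusted p = 0.34). Cenpt, a centromere protein, was at -0.34 ± 0.09 and the mitotic kinase gene Plk1 at -0.18 ± 0.06.

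**Figure D2:**
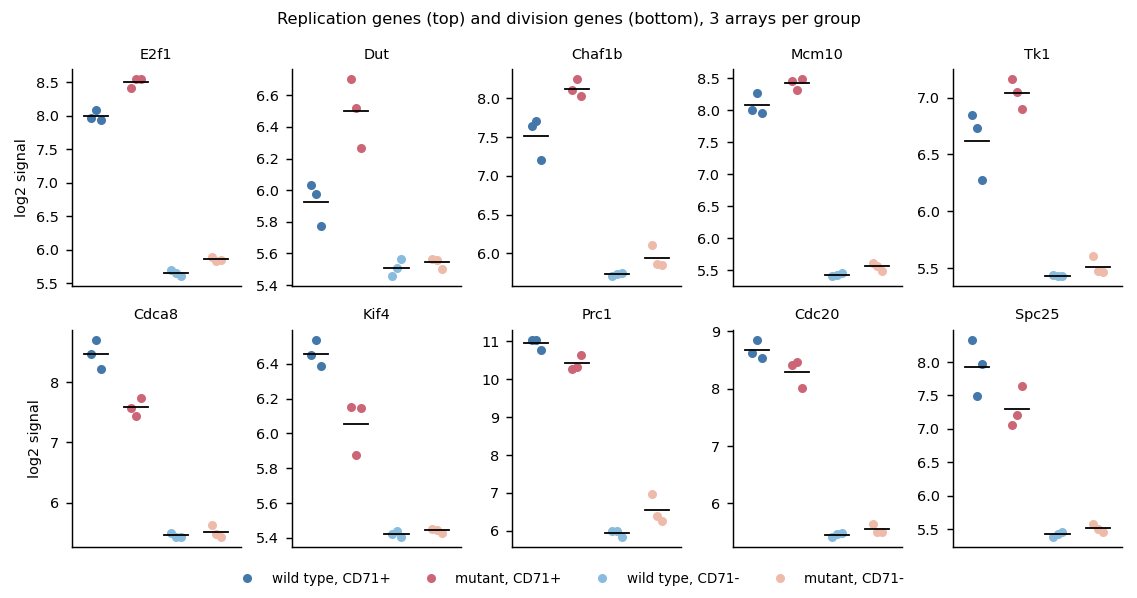
Each panel plots the log2 signal of a gene on all 12 arrays, with points for arrays and a black line for each group's mean. In the top row (E2f1, Dut, Chaf1b, Mcm10, Tk1) the red CD71-positive mutant points lie above the blue wild-type points, and in the bottom row (Cdca8, Kif4, Prc1, Cdc20, Spc25) they lie below or overlap. The CD71-negative points are lower, though not far lower for Dut.

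Genes of the nucleolus and of the Myc network were also among the calls. Mxd3, which pairs with Max and opposes Myc at its target sites, fell from 5.89, 5.98 and 5.85 to 5.69, 5.62 and 5.58 (-0.27 ± 0.04, adjusted p = 0.025). Nol10, a nucleolar protein of small ribosomal subunit assembly, rose from 6.71, 6.49 and 6.25 to 7.28, 7.19 and 6.97 (0.66 ± 0.11, adjusted p = 0.043). Ebna1bp2, a nucleolar factor of the large subunit, rose from 5.82, 5.99 and 6.04 to 6.36, 6.48 and 6.49 (0.49 ± 0.07, adjusted p = 0.025). The arrays of the genotypes did not overlap for any of them. Of 21 tested genes of the Myc and Mxd network, these changes of Mxd3 and Nol10 were the 2 calls (background 0.424%). In that list 5 had an unadjusted p under 0.05 and were higher (background 5.1%), and the median was 0.16. Rrp12, needed for export of both ribosomal subunits, was at 0.53 ± 0.11 and Nhp2 (listed as Nola2), of the particles that modify ribosomal RNA, at 0.53 ± 0.11 (adjusted p = 0.094 and 0.13).

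Ribosomal protein genes had 0 calls, and 3 of 31 had an unadjusted p under 0.05, all higher (9.68% against 5.1% of all tested genes). They were above 0 in 30 of 31 cases, against 46.9% of all tested genes, with a median of 0.21. That median was -0.01 when mutant arrays 1 and 2 were both left out, an alternative chosen after seeing the data. Rpl4 lay at 7.30, 6.94 and 7.15 in wild type and at 7.38, 7.58 and 7.61 in mutants (0.39 ± 0.10, adjusted p = 0.20).

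Genes of double-positive thymocytes stood lower as a list, and 1 of them passed the threshold. Endou, listed as Pp11r, encodes an endoribonuclease that cuts at uridines. It read 9.32, 9.21 and 9.37 in wild type and 8.83, 8.66 and 8.79 in mutants (-0.54 ± 0.06, adjusted p = 0.0072), with a gap between the groups. Of 33 tested members 32 were below 0, 12 had an unadjusted p under 0.05, all lower (background 3.44%), and the median was -0.30 (range -0.45 to -0.23). The lower count ran from 2 to 19 over the alternatives.

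Transcription factor genes of this stage were among the members with the smallest p-values after Endou. Satb1, a chromatin organizer of thymocytes, read 12.27, 12.22 and 12.50 against 11.58, 11.64 and 11.81 (-0.65 ± 0.13, adjusted p = 0.11). Ets1 read 9.48, 9.85 and 9.89 against 9.24, 9.25 and 9.28 (-0.48 ± 0.11, adjusted p = 0.14). Both had separate groups and neither passed the threshold. Rag1, the recombinase of receptor genes, read 8.68, 8.39 and 9.21 against 7.6, 7.48 and 8.53 and overlapped (-0.89 ± 0.31, adjusted p = 0.40). Runx1, of the positive selection list, read 6.37, 6.47 and 6.28 against 6.14, 6.04 and 5.89 (-0.35 ± 0.07, adjusted p = 0.075), while that list of 21 had a median of -0.02.

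Genes of the nuclear envelope and pore moved in opposite directions. Sun2, listed as Unc84b, spans the inner nuclear membrane and links the nucleus to the cytoskeleton. It fell from 8.67, 8.76 and 8.76 to 8.14, 8.34 and 8.27 (-0.48 ± 0.07, adjusted p = 0.034). Nup43, of the pore subcomplex that also sits at kinetochores, rose from 6.84, 7.04 and 6.68 to 7.58, 7.45 and 7.27 (0.58 ± 0.10, adjusted p = 0.043). Neither gene's groups overlapped. The 32 tested genes of this list had a median of -0.02, with Nup85 of the same subcomplex at 0.56 and the envelope gene Lemd2 at -0.59 ± 0.14 (adjusted p = 0.47 and 0.18).

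In the DNA repair list the call was a fall, of a gene whose place in the list is no proof of a repair role. Ssbp2, which encodes a protein that binds single-stranded DNA, read 7.42, 7.69 and 7.68 in wild type and 6.61, 6.6 and 6.65 in mutants (-0.98 ± 0.11, 1.97-fold lower, adjusted p = 0.0072). The mutant arrays were almost equal and lay well below every wild-type array. Of 34 tested members 9 had an unadjusted p under 0.05 and were higher (background 5.1%), among them the fork protection genes Timeless (0.17 ± 0.04) and Tipin (0.35 ± 0.10) and the helicase gene Blm (0.49 ± 0.11), while the median was 0.01. Ssbp2 and the histone variant gene H2ax (listed as H2afx), at -0.78 ± 0.26 with an adjusted p of 0.36, were lower at that level (background 3.44%). The p53 target list was flat: 26 tested, 0 calls, median 0.01, with Bax at 0.70 ± 0.30, Ccng1 at 0.33 ± 0.13 and Cdkn1a at 0.06 ± 0.02, all short of the threshold. In the apoptosis list Uaca, which binds the apoptosome protein Apaf1, rose from 6.6, 6.73 and 6.31 to 7.32, 7.17 and 7.24 (0.70 ± 0.09, adjusted p = 0.022), and Casp8 was at 0.37 ± 0.08 (adjusted p = 0.11).

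**Figure D3:**
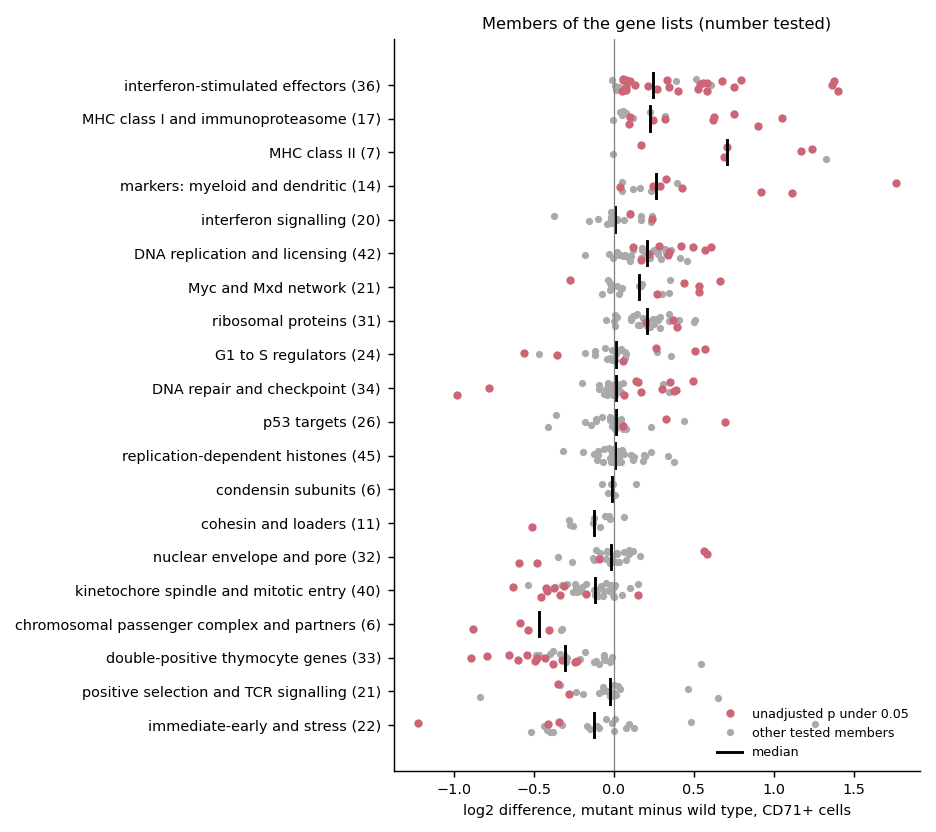
Each point is a tested member of a gene list, placed by its log2 difference between mutant and wild-type CD71-positive cells, red where the unadjusted p was under 0.05, with black bars at list medians. Medians lie at 0.24 for interferon-stimulated effectors, 0.21 for DNA replication, -0.30 for double-positive thymocyte genes and -0.47 for the passenger complex, while condensin, histones and p53 targets lie at about 0.

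The remaining called genes had varied roles. LOC100044190, an entry without a current symbol, gave the smallest p-value and read 6.33, 6.21 and 6.45 in wild type and 7.96, 7.91 and 7.94 in mutants (1.6 ± 0.08, 3.04-fold, adjusted p = 5.5e-05). LOC100048346, likewise unnamed, went from 5.79, 5.75 and 5.63 to 6.85, 7.03 and 6.90 (1.21 ± 0.14, adjusted p = 0.0081). Entpd4, which splits nucleoside diphosphates in the Golgi, went from 6.61, 6.45 and 6.33 to 7.32, 7.33 and 7.29 (0.85 ± 0.09, adjusted p = 0.0072). For all 3 the mutant arrays lay close together, far from the wild-type arrays.

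The other rises belonged to genes of unlike function. Ehd4, of endosome recycling, rose by 0.64 ± 0.09, Nudt19, a peroxisomal enzyme, by 0.58 ± 0.09, Colgalt1 (listed as Glt25d1), a collagen sugar transferase, by 0.48 ± 0.05, and Nceh1 (Aadacl1), a cholesterol ester hydrolase, by 0.45 ± 0.07. The adenosine kinase gene Adk rose by 0.38 ± 0.06, the proteasome assembly gene Psmg1 (Dscr2) by 0.25 ± 0.04, the serine hydroxymethyltransferase gene Shmt2 by 0.24 ± 0.04 and the translation initiation gene Eif2s2 by 0.17 ± 0.03, a direction that median centring turned. Slc40a1, the iron exporter ferroportin, was detected on 1 wild-type and 3 mutant arrays and read 5.45, 5.42 and 5.43 against 5.65, 5.90 and 5.76 (0.34 ± 0.05, adjusted p = 0.034).

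Among the falls, Fgf13, an intracellular relative of the fibroblast growth factors, was detected on all 3 wild-type arrays at 6.57, 6.76 and 6.34 and on 0 mutant arrays, where it read 5.64, 5.62 and 5.82. For an undetected gene, a bound enters each array at the gene's own value or at the array's dimmest detected gene, whichever was brighter. The own values of Fgf13 were brighter, so its 1.82-fold fall (adjusted p = 0.0081) is an estimate and not a bound. Its mutant values lie close to the floor, where the scale compresses changes. Prnp, the prion protein gene, fell from 6.59, 6.47 and 6.64 to 6.15, 6.13 and 6.14 (-0.43 ± 0.07, adjusted p = 0.038). Chchd2, a mitochondrial protein gene, fell by 0.39, Tbl2 by 0.34, the zinc finger gene Zfp41 by 0.29 and Fam110a by 0.18 on the log2 scale. In all, 81 genes, or 0.982% of those tested, were detected on all 3 arrays of either CD71-positive group and on 0 of the other, 48 of them in mutants, and Fgf13 was the called gene among them. Detection did not follow the signal strictly, since some of these genes were bright where undetected, so such bounds are uncertain.

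The CD71-negative arrays show which of these differences were shared by the resting subset. The same contrast there called 35 genes as well (0.424%), with 23 higher (0.279%) and 12 lower (0.146%), and an unadjusted p under 0.05 was reached by 10.4% (4.91% higher and 5.51% lower). The contrasts have no array in common. They shared 7 genes, which is 20% of each list: Usp18, D12Ertd647e (Ifi27), Lgals3bp, LOC100044190, LOC100048346, Entpd4 and Prnp. Of the 35 genes called in CD71-positive cells, 26 had the same sign in CD71-negative cells. The interferon-stimulated effectors again had 25 members with an unadjusted p under 0.05, all higher, and 6 calls, and 35 of the 36 above 0 against 49.4% of all tested genes there, with a median of 0.14. Class I genes had a median of 0.31 there, and Usp18 differed by 1.45 ± 0.13, close to its value in CD71-positive cells (difference between subsets -0.07 ± 0.18, unadjusted p = 0.70).

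The test of the difference between subsets called 1 gene of 8247 (0.0121%). LOC100044190 differed by 1.6 in CD71-positive and by 0.51 in CD71-negative cells, where it read 6.41, 6.47 and 6.25 in wild type and 7.01, 6.87 and 6.77 in mutants. The excess of 1.09 ± 0.11 had an adjusted p of 0.033, and 0 genes passed under 9 alternatives of processing or with some single arrays left out. Without adjustment 466 genes (5.65%) had p under 0.05 in this test, 3% with a higher and 2.66% with a lower effect in CD71-positive cells, and 25 of the 35 genes called in CD71-positive cells were among them, a share that their selection on the CD71-positive effect raises. Cdca8 and Ssbp2 differed by 0.06 and 0.02 in CD71-negative cells against -0.88 and -0.98, and Nol10 by -0.14 against 0.66, without passing the adjusted test of the difference. For division genes the CD71-negative values have little room to fall, since genes such as Cdca8 lie near the floor there. They leaned higher in mutants there, where 49.4% of all tested genes were above 0. All 6 passenger complex genes were above 0 (median 0.04), as were 32 of the 40 kinetochore, spindle and mitotic entry genes (median 0.03). Prc1 was at 0.59 and Cenpa at 1.06 there (adjusted p = 0.22 and 0.089). The cause of this contrast between subsets was not tested. Of 45 tested histone genes, 0 had an unadjusted p under 0.05 in CD71-positive cells (median 0.01, and 0 to 8 higher over the alternatives), against 15 in CD71-negative cells, all higher, with 3 calls and a median of 0.20.

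**Figure D4:**
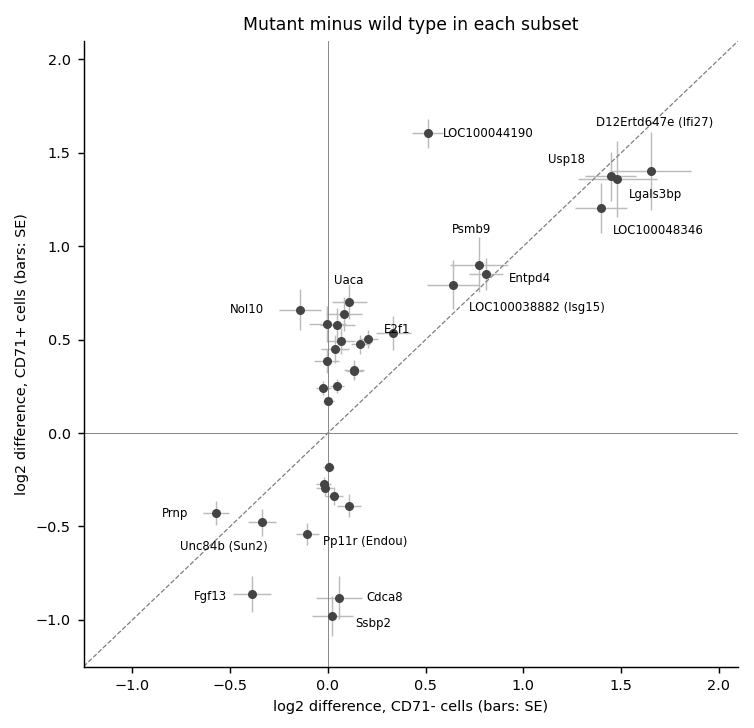
The 35 called genes are placed by their log2 difference between mutant and wild type in CD71-negative cells (horizontal) and CD71-positive cells (vertical), with bars for the SE of the fit and a dashed line of equal effect. Usp18, Ifi27, Lgals3bp, LOC100048346 and Entpd4 lie near the line, LOC100044190 lies at 0.51 and 1.6, and Ssbp2 and Cdca8 lie near 0 on the horizontal axis.

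Transcripts of class II and myeloid or dendritic cells were higher on mutant arrays, most of all on array 2, and double-positive thymocytes make little of either. Cd74, the invariant chain of class II, read 6.77, 6.99 and 6.12 in wild type and 8.20, 9.31 and 6.34 in mutants. H2-Ab1, a class II beta chain, read 6.87, 6.78 and 6.11 against 7.83, 9.13 and 6.51. Mutant arrays 1 and 2 stood above every wild-type array for both genes, and mutant array 3 stood within the wild-type range. The class II list had 0 calls among 7 tested, and 5 had an unadjusted p under 0.05, all higher (background 5.1%). Its median was 0.70, which became -0.04 without mutant arrays 1 and 2.

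The myeloid and dendritic list had 14 tested genes of 30 on the array. All 14 were above 0, against 46.9% of all tested genes, and 8 had an unadjusted p under 0.05, all higher (background 5.1%). The median was 0.27 (0.05 without mutant arrays 1 and 2), and 0 passed the threshold. A gene could pass the detection filter through the mutant arrays alone, so these counts can lean upward by selection. The array entry Lyz, for lysozyme of phagocytes, read 6.0, 5.98 and 5.75 in wild type and 7.21, 8.69 and 7.13 in mutants (1.77 ± 0.34, adjusted p = 0.075). A separate entry Lyz1 was detected on 0 of the 6 arrays, and Lyz2 read 5.45 to 5.50 in wild type and 5.63 to 5.99 in mutants, so signal among these close copies is uncertain. Lgals3, galectin-3, read 5.83, 5.55 and 5.59 against 6.42, 7.45 and 6.45 (1.11 ± 0.23, adjusted p = 0.11), and Fcer1g, an Fc receptor chain, read 5.56, 5.56 and 5.46 against 6.14, 7.47 and 5.72 (0.92 ± 0.35, adjusted p = 0.46). For all 3 genes mutant array 2 was the highest and no mutant array reached down to the wild-type arrays.

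Summed over the list on the linear scale, this signal was 1008 to 1143 on the wild-type arrays and 1331, 1980 and 1195 on mutant arrays 1 to 3. Of the 30 genes, 9 to 10 were detected on a wild-type array and 13, 14 and 16 on mutant arrays 1 to 3. The complement gene pair C1qb and C1qc and the plasmacytoid dendritic cell marker Siglech were each detected on 1 wild-type and 3 mutant arrays, Cd68 on 2 and 3, the macrophage marker Emr1 on 0 and 2, and Csf1r and Fcgr1 on 0 and 1. The markers Itgam, Itgax, Fcgr3, Xcr1 and C1qa were detected on 0 of the 6 arrays. B cell markers summed to 319 to 327 in wild type and 320 to 321 in mutants, those of thymic epithelium and stroma to 459 to 461 and 461 to 463, and those of erythroid cells to 237 and 237 to 241. For natural killer and innate-like T cells the sums were 416 to 454 and 456 to 561. That list also holds Fcer1g, the highest on mutant array 2, and Prf1, at 7.12 on mutant array 3 yet detected on 0 mutant arrays, while its other members were close to the floor. Beside this, the interferon-stimulated effectors summed to 1891 to 2211 in wild type and to 3053, 3483 and 3286 in mutants 1 to 3. Without mutant arrays 1 and 2, Usp18 differed by 1.40, Gbp3 by 0.48, LOC100044190 by 1.63 and Slc40a1 by 0.35, all still past the threshold, and the effector list had a median of 0.28. The other interferon genes lost their call with that single mutant array, Isg15 at 0.57, Ifitm3 at 0.39, Lgals3bp at 1.09 and Psmb9 at 0.77. The part of other cell types in these results was not tested.

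**Figure D5:**
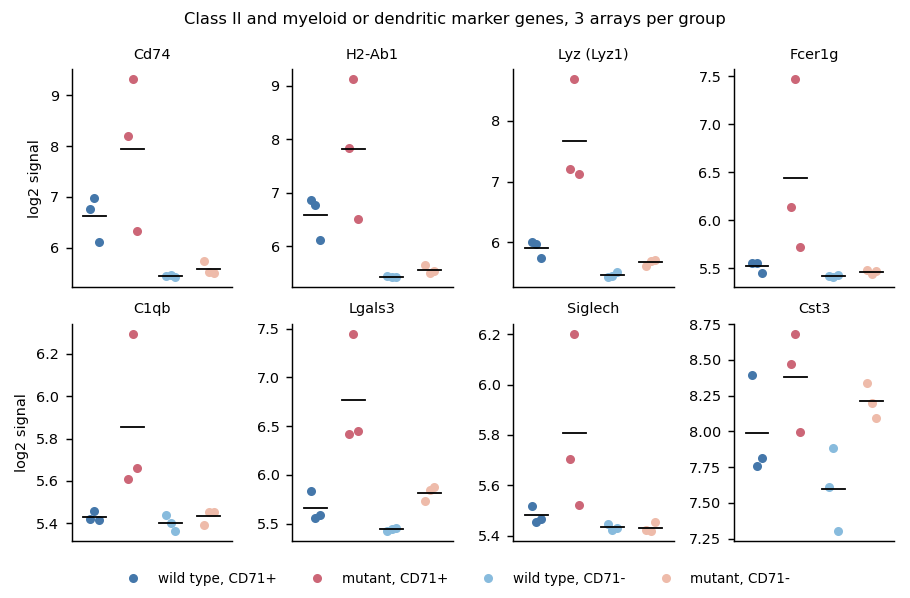
Each panel plots the log2 signal of a class II or myeloid or dendritic marker gene on all 12 arrays, with points for arrays and black lines for group means. The highest point in each of the 8 panels is the second mutant CD71-positive array, for example 9.31 for Cd74 and 8.69 for Lyz.

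The surroundings of the mutated gene were looked at separately, because DNA that flanks a mutation is inherited with it. Ncaph2 lies on chromosome 15, and 234 tested genes lie within 20 Mb of it in RefSeq annotation. Of these 3 passed the threshold, or 1.28% against 0.424% over all tested genes: Endou, Sun2 and Zfp41, all lower. An unadjusted p under 0.05 was reached by 27, or 11.5%, against 8.46% of the genes elsewhere, with 13 higher and 14 lower. Among the genes just outside the threshold, Ly6a, a surface antigen induced by interferon, and Prr13 also lie in this stretch. Ly6a had the largest difference of any tested gene, from 6.91, 6.67 and 6.18 to 8.50, 9.55 and 7.89 (2.06 ± 0.36, adjusted p = 0.059), and Prr13 read 6.94, 6.23 and 6.34 against 7.55, 8.29 and 7.63 (1.32 ± 0.24, adjusted p = 0.065). The position of a gene and its effect were not separated by any group of the series.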

How the data were processed

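RNA of the 12 sorted samples was measured on 1-colour Illumina bead arrays, from 80 ng of biotin-labelled total RNA per sample, per the labels' protocols. The authors deposited a table of signal intensity per gene symbol that its name gives as not normalized, with a detection p-value beside each intensity, as deposited. The sources do not state how probes of a gene were combined. A second table holds the authors' processed intensity values, made with RMA per the submitters' processing notes, which served as an alternative.

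Signals were background-corrected from the detection p-values with an offset of 16, quantile normalized and put on the log2 scale (neqc of limma 3.58.1, R 4.3.3). The filter kept genes detected (p under 0.05) on 3 or more of the 12 arrays. A gene could thus pass through the arrays of a single group. A single model of all 4 groups was fitted (lmFit, eBayes), which pools the spread over subsets with 8 residual degrees of freedom, and p-values were adjusted by Benjamini-Hochberg over 8247 genes. All tests are two-sided and all adjusted p-values come from limma. The fit was tested on simulated data. The number of arrays limits the precision.

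Named are the mutated gene and the sort markers, every called gene, the 5 smallest p-values in each direction of the subset test, up to 4 members per list by p-value and the 10 genes just outside the threshold. Of the genes detected in a single genotype only a few are named. Members named beyond the rule were chosen after their values were seen. Members and lists were chosen with earlier results of these data known. Current symbols come from RefSeq (14307 genes by symbol, 110 by gene ID, 2906 by synonym, 815 unmatched). Alternatives covered the pooled spread, the replicate number, normalization, background, filter, variance model, array weights, array brightness and single arrays. Some items are not reported here.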

Additional observations from a re-analysis of the deposited data

Results flagged for a closer look

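LOC100044190, an array entry without a current symbol, was the 1 gene whose genotype effect differed between the subsets by a test of the difference itself. Its effect in CD71-positive cells exceeded that in CD71-negative cells by 1.09 on the log2 scale (SE 0.11, adjusted p = 0.033 from limma). No gene passed this test under cyclic loess, median centring, the replicate block, either other background, the authors' values, no filter, a trended variance or array brightness as a covariate. All 3 mutant arrays were above all 3 wild-type arrays in both subsets.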

How the results depend on the processing

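Counts of called genes in CD71-positive cells (35), in CD71-negative cells (35) and for the difference between subsets (1) moved widely with the processing. In that order, cyclic loess gave 6, 8 and 0, median centring 0, 0 and 0 (145, 222 and 129 genes at an unadjusted p under 0.05), no filter 16, 20 and 0, the authors' processed values 22, 55 and 0, background from dim genes 16, 48 and 0, no background correction 16, 44 and 0, a trended robust variance 33, 53 and 0, array weights 207, 461 and 45, and array brightness as a covariate 28, 12 and 0. Fits on a single subset gave 2 and 2. At an unadjusted p under 0.05 the difference test had 364 to 932 genes in those fits with 0 calls other than median centring. With 1 array left out the counts ran from 11 to 61, from 14 to 121 and from 0 to 5. For CD71-positive cells the arrays that moved the count by over 1.5 times were mutant CD71-positive 1, 2 and 3 (16, 22 and 61), wild-type CD71-positive 3 (18), wild-type CD71-negative 1 and 2 (11 and 15), and mutant CD71-negative 2 and 3 (17 and 14). Leaving out mutant CD71-positive arrays 1 and 2 together, chosen after seeing the data, gave 7, 9 and 1, the last a gene other than LOC100044190, and the lone mutant array was assumed to vary like the other groups.

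The replicate block gave 23 calls in CD71-positive cells, 20 of them among the 35, and 0 for the difference (498 at an unadjusted p under 0.05). Same-numbered deviations correlated at -0.25, 0.40 and 0.19, so the numbers were not taken to pair the samples.

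The 35 called genes kept their direction in all 26 alternatives except Eif2s2, at -0.0084 under median centring. LOC100044190 kept its call in 25 of the 26, Usp18, Ssbp2, Entpd4 and LOC100048346 in 23, E2f1 in 20 and Cdca8 in 15, while 21 of the 35 kept theirs in fewer than 13. The causes were not tested.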

Other observations

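Lists of earlier thymocyte stages, cohesin, stress and iron handling held 1 call in CD71-positive cells. In the double-negative stage list 3 of 12 tested members had an unadjusted p under 0.05, all higher (25% against 5.1% of all tested genes), with 0 calls and a median of 0.05, and Dtx1, a Notch target, was at 0.15 ± 0.05 (log2 difference ± SE, adjusted p = 0.31). Of 11 cohesin genes 10 were below 0, against 46.9% of all tested genes above 0. Of the 11, 0 passed the threshold (median -0.12), with the cohesin loader gene Nipbl at -0.51 ± 0.23. Immediate-early and stress genes had 0 calls among 22 and a median of -0.13. Its members varied in direction, from Nfkbia, the inhibitor of NF-kappaB, at -1.23 ± 0.53 to the heat shock gene Hspa1a at 1.26 ± 0.66, neither past the threshold. Among 8 iron genes Slc40a1 was the call, and the median was 0.01. The B cell, natural killer, epithelial and sex-linked lists had 0 calls among 2, 6, 3 and 4 tested members.

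Several genes with small p-values for the difference between subsets differed mainly in CD71-negative cells. Epsti1, an interferon-induced gene, read 5.85, 5.85 and 6.05 in wild type and 6.57, 6.6 and 6.56 in mutants there (0.66, adjusted p = 0.0051), against 5.76, 5.56 and 5.64 and 5.75, 5.7 and 5.78 in CD71-positive cells (0.09, adjusted p = 0.83). The pseudogene entry 4933439C20Rik (Pisd-ps3) differed by 1.14 in CD71-negative and 0.36 in CD71-positive cells, and Zmym3 by -0.31 and 0.00. Samsn1 was at 0.40 in CD71-positive and -0.30 in CD71-negative cells, and Dpp3 at 0.25 and -0.13. Hist1h2ao differed by 0.77 in CD71-negative cells, while the 6 CD71-positive arrays shared the values 13.17 and 13.31, which quantile normalization gives to the brightest genes of every array. For these 6 genes the adjusted p of the difference was 0.24.

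Genes just outside the threshold also held Plekhg3 (-0.30), Fnbp1l (-0.28), Rfx2 (-0.59) and the unnamed entries LOC100045343 (-0.29) and LOC100047934 (0.29), with adjusted p-values of 0.056 to 0.066. Erdr1 was detected on all 3 wild-type and 0 mutant CD71-positive arrays, at least 1.84-fold lower in mutants, with an adjusted p of 0.45. In the other direction Mrpl13, a mitochondrial ribosome gene, was 1.51-fold and Cdc45 (listed as Cdc45l), a replication helicase subunit, 1.41-fold higher. Both had adjusted p-values above the threshold (0.25 and 0.41). Wild-type signal of both was well above the floor although undetected, so these are plain estimates and not bounds. The arrays of the genotypes overlapped for Cdc45, and both values are uncertain. Other genes detected on all 3 mutant and 0 wild-type CD71-positive arrays lay near the floor in wild type. Among them were Lpl (at least 1.22-fold higher), Vcam1 (1.20), Ear2 (1.09), Cxcl9 (1.07) and the Fc receptor gene Fcgr4 (1.07), with adjusted p-values of 0.29 to 0.38. Whether they share in the myeloid and dendritic signal was not tested.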
